A study of Mus musculus with 2 samples.

Results

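Glycolysis is described here through 10 genes: the glucose transporter gene Slc2a1 and the enzyme genes Hk2, Pfkl, Pfkp, Aldoa, Gapdh, Pgk1, Eno1, Pkm and Ldha. They were taken by symbol from the gene list of both libraries, where the 10 symbols matched 11 of 31053 rows. Aldoa has 2 rows, and the row with gene ID ENSMUSG00000114515 held 1 UMI in the deficient-labelled library and 0 in the wild-type-labelled library. Aldoa below means ENSMUSG00000030695. No measured value entered the choice, and none of the 10 was used to sort cells into types.

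The data are droplet single-cell RNA counts of cells from the lamina propria of the colon, the connective tissue below the gut epithelium, of male C57BL/6 mice aged 6-8 weeks and kept free of specific pathogens. The first library is labelled deficient in Lncly6c (1700016P04Rik), a long noncoding RNA gene whose whole body was deleted with CRISPR-Cas9 on the C57BL/6J background, and the second is labelled wild type. The study asked how this RNA acts on macrophage differentiation. With 1 library per group there are no replicates, so no test was possible, and every interval covers counting error only.

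The libraries held 6133 deficient-labelled and 3020 wild-type-labelled barcodes with medians of 7539 and 4426.5 UMIs (unique molecular identifiers, each standing for 1 captured RNA molecule). The deposited names of the count tables give each library the genotype that its labels give to the other, and 1700016P04Rik had 0 UMIs in both libraries, so the data did not settle which is which. Groups follow the labels throughout. Of 5890 deficient-labelled and 2610 wild-type-labelled barcodes kept after filters, 4667 and 2052 passed a gate of at least 3 marker genes of a cell type. Barcodes passing the gates of separate lineages, which can be droplets with more than 1 cell, made up 10.1% of the deficient-labelled and 2.61% of the wild-type-labelled barcodes and were left out. Just 7 barcode sequences occurred in both libraries. Class names end in "-like" because they rest on RNA alone. In each named class shown for both libraries the leading genes held at least 2 of its own markers and none of another type. The gates use these same markers, so this describes the classes and is no separate support for their names. Barcodes that passed both the monocyte and the macrophage gate form a class of their own, called double-gate cells, led by Retnla, Lyz1 and Lpl.

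Glycolysis splits glucose into pyruvate in the cytosol, yielding ATP without oxygen, and lactate dehydrogenase turns pyruvate into lactate while restoring the cofactor that the pathway needs. Activated myeloid cells are known to rely on it, and many of its genes can be induced under low oxygen by the factor HIF-1. Hexokinase traps glucose in the cell, phosphofructokinase makes the committed step, and pyruvate kinase closes the pathway.

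Promoter stretches of 3 members are shown because Hk2 is the member that differed most between the libraries, while Pgk1 and Ldha are members that did not share that difference. Each runs over the 250 bases before the first start that RefSeq lists for the gene (build GRCm38.p6), and none of these bases lies in an annotated exon of its gene in GENCODE vM21. The Hk2 and Pgk1 stretches lie outside every annotated gene, whereas the Ldha stretch lies within the annotated span of Ldha, which begins further upstream, between its exons. Capitals mark ACGTG or GCGTG on either strand (also read as CACGT or CACGC), the core letters of a HIF-type motif, with overlapping matches counted as 1 stretch.
Hk2, chr6:82774455-82774704, minus strand: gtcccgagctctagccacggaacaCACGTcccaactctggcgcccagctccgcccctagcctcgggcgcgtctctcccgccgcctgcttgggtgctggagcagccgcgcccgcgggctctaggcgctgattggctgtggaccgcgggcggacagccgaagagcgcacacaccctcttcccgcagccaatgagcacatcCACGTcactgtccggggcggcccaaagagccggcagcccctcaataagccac
Pgk1, chrX:106186850-106187099, plus strand: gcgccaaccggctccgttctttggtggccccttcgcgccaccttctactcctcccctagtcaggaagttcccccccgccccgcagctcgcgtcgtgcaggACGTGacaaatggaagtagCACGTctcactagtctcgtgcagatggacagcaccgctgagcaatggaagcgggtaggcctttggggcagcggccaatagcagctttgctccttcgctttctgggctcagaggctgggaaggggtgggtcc
Ldha, chr7:46845554-46845803, plus strand: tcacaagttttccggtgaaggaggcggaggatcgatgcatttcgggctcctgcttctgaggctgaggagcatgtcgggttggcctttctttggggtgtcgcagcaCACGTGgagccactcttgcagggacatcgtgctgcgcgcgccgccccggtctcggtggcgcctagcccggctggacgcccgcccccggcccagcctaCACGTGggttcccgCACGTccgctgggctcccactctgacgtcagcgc
Hk2 and Pgk1 held 2 such stretches each and Ldha held 3. In the same window at least 1 stretch was found in 8 of the 10 members and in 38.6% of 27025 genes, at least 2 in 13.5% and at least 3 in 4.65%. The exceptions, at their first listed start, were Aldoa and Pkm, each of which had 1 stretch at its second start. These letters describe the sequence and do not show that a factor binds there.

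Together the 10 genes made up 0.256% of all UMIs in either library (139978 deficient-labelled and 59981 wild-type-labelled UMIs). Counts were summed over the cells of a class and given as CPM, the number in every 1000000 UMIs of that class. Of these classes, 10 had at least 50 cells in each library. The summed level was lowest in B cell-like cells, with 1415 CPM in the deficient-labelled and 1197 CPM in the wild-type-labelled library. Next came T cell-like cells at 2173 and 2185 CPM, and the other classes lay between 2405 and 2835 CPM in the deficient-labelled and between 2189 and 2780 CPM in the wild-type-labelled library. On the log2 scale the B cell-like level was 0.95 below the median of the other classes in the deficient-labelled library (difference -0.95) and 1.14 below in the wild-type-labelled library (difference -1.14). Because every class held UMIs of these genes, none could serve to measure free RNA as a background.

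**Figure D1:**
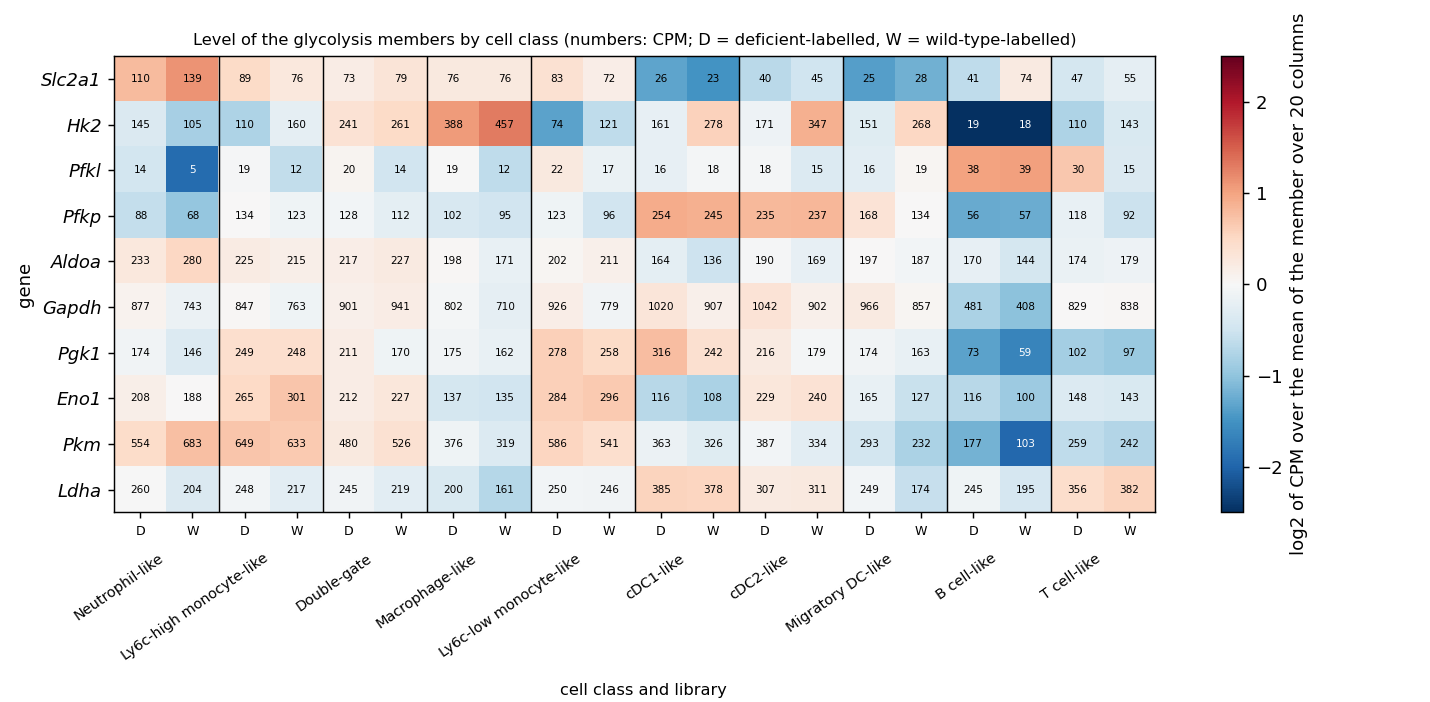
Level of each of the 10 glycolysis genes (rows) in 10 cell classes (columns, deficient-labelled left of wild-type-labelled), with the CPM printed and the colour giving log2 of the CPM over the mean of that gene across the 20 columns. Hk2 is highest in macrophage-like cells and lowest in B cell-like cells in both libraries, and Pfkp is highest in cDC1-like and cDC2-like cells.

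Slc2a1 (chr4:119108711-119137983, plus strand) encodes GLUT1, which carries glucose across the plasma membrane. Its level was highest in neutrophil-like cells, at 109.7 CPM in the deficient-labelled and 139 CPM in the wild-type-labelled library. Ly6c-high monocyte-like and macrophage-like cells held 89.3 and 75.9 CPM in the deficient-labelled library and 76.1 and 75.8 CPM in the wild-type-labelled library. Dendritic cells were lowest: cDC1-like cells had 25.5 deficient-labelled and 22.6 wild-type-labelled CPM, and migratory DC-like cells 24.7 and 27.6 CPM. In none of the 5 classes compared did the counting interval of the ratio between libraries exclude equal levels. In B cell-like cells, too few for that comparison, Slc2a1 had 41.2 CPM (83 UMIs) in the deficient-labelled and 74.5 CPM (29 UMIs) in the wild-type-labelled library, a log2 ratio of -0.86 (95% interval -1.48 to -0.19).

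Slc2a1 was set beside the related genes Slc2a3 (GLUT3) and Slc2a6 (GLUT6), and its portion of the UMIs of these 3 genes followed the cell class. This portion concerns RNA and is not a share of glucose uptake. The portion was 65.3% in deficient-labelled and 69.8% in wild-type-labelled macrophage-like cells, against 51.8% and 52.4% in Ly6c-high monocyte-like cells. Migratory DC-like cells held 16.0% and 20.2%. In neutrophil-like cells the second transporter was abundant, with 231 deficient-labelled and 347 wild-type-labelled CPM of Slc2a3.

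Hk2 (chr6:82725025-82774454, minus strand) encodes hexokinase 2, the inducible enzyme that phosphorylates glucose on entry. It varied more between classes than any other member, from 18.8 CPM in B cell-like to 388 CPM in macrophage-like cells of the deficient-labelled library (20.6-fold) and from 18.0 to 457 CPM in the wild-type-labelled library (25.4-fold). In B cell-like cells these levels rest on 38 deficient-labelled and 7 wild-type-labelled UMIs.

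Hk2 was also the member that differed most between the libraries, and its difference was largest in cDC2-like cells. The level in cDC2-like cells was 171 CPM in the deficient-labelled library (2482 UMIs, 1173 cells) and 347 CPM in the wild-type-labelled library (3019 UMIs, 574 cells). The log2 ratio was -1.02 (95% interval -1.10 to -0.94), or 2.03-fold higher in the wild-type-labelled library, and 0.67% of the 9850 genes measured in that class had a lower ratio. In cDC1-like cells Hk2 had 161 deficient-labelled and 278 wild-type-labelled CPM, a log2 ratio of -0.79 (-0.93 to -0.64). That ratio was -0.27 in a random draw that thinned each cell to 1000 UMIs. Migratory DC-like cells had 151 and 268 CPM, a log2 ratio of -0.82 (-1.02 to -0.62). In all 3 dendritic classes the deficient-labelled level was the lower.

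Monocytes and macrophages showed a smaller difference in Hk2 than cDC2-like cells, although the wide Ly6c-low interval included the cDC2-like value. Ly6c-high monocyte-like cells had 109.7 deficient-labelled and 159.6 wild-type-labelled CPM (log2 ratio -0.54, -0.73 to -0.35), and Ly6c-low monocyte-like cells 73.8 and 121 CPM (-0.71, -1.20 to -0.22). Macrophage-like cells had 388 and 457 CPM (-0.24, -0.37 to -0.11). Double-gate cells, at 241 deficient-labelled and 261 wild-type-labelled CPM, had an interval that reached 0 (-0.34 to 0.11). Neutrophil-like cells stood on the other side, with 145 deficient-labelled CPM (74 UMIs) and 105 wild-type-labelled CPM (106 UMIs), a log2 ratio of 0.46 (0.02 to 0.91). That direction did not hold there: it was -0.38 as a mean over cells and -0.16 with every cell thinned to 1000 UMIs.

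**Figure D2:**
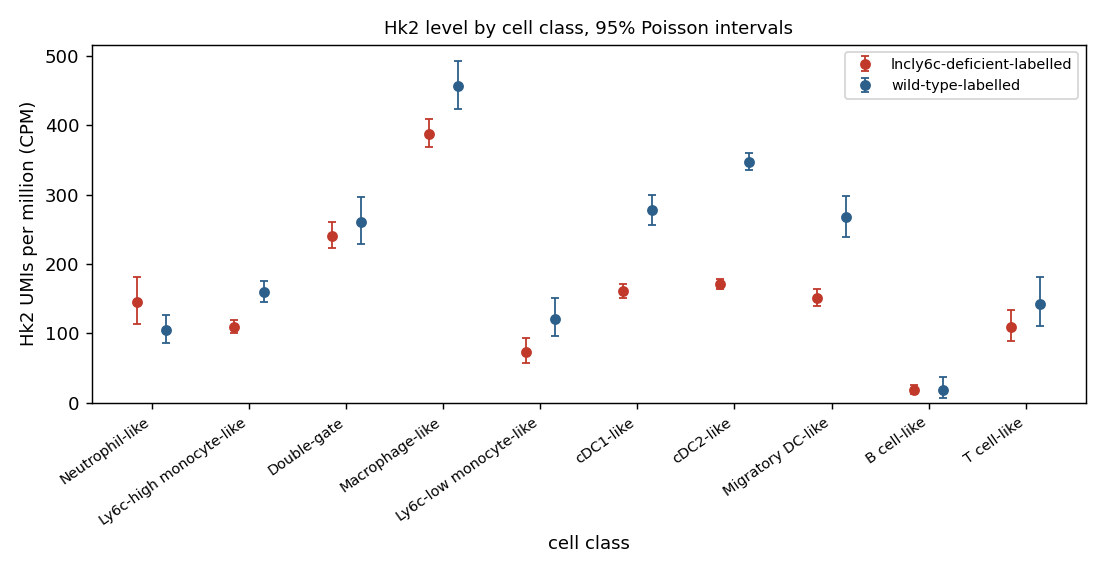
Hk2 level in CPM (vertical axis, from 0) in 10 cell classes, with the deficient-labelled library in red left of the wild-type-labelled library in blue and bars giving 95% Poisson intervals. The intervals of the 2 libraries are apart in cDC1-like, cDC2-like, migratory DC-like, macrophage-like and both kinds of monocyte-like cells, with the widest gap at 171 against 347 CPM in cDC2-like cells.

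Fewer cDC2-like cells of the deficient-labelled library carried Hk2 as well. After thinning each cell to 1000 UMIs, 15.4% of deficient-labelled (13.4 to 17.6%) and 27.7% of wild-type-labelled (24.1 to 31.6%) cDC2-like cells had an Hk2 UMI, and before thinning 70.0% and 89.5%. The thinned shares were 16.7% (12.9 to 21.1%) and 27.3% (19.2 to 36.6%) in cDC1-like cells and 22.7% (18.9 to 26.9%) and 33.1% (26.1 to 40.8%) in macrophage-like cells, so that both pairs of intervals touch. B cell-like cells, the lowest class, had 1.72% and 1.20%. Migratory DC-like cells had 14.8% (10.9 to 19.4%) and 16.5% (9.06 to 26.5%), too wide at this depth to show a difference.

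The cDC2-like difference was about as large within each subset examined. Among cells with a UMI of Plet1, a surface marker of part of the colonic cDC2, Hk2 had 182 deficient-labelled and 368 wild-type-labelled CPM, and among cells without one 168 and 339 CPM. Cells without signs of cycling gave 174 and 368 CPM. Hk1, the housekeeping hexokinase, was lower too, with 28.8 deficient-labelled and 40.7 wild-type-labelled CPM in cDC2-like cells (log2 ratio -0.50, -0.71 to -0.29). Hk2 made up 83.4% of deficient-labelled and 88.2% of wild-type-labelled Hk1, Hk2 and Hk3 UMIs there.

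Immediate-early genes respond within minutes to stimulation and to tissue dissociation. The summed level of the 8 listed (Fos, Fosb, Jun, Junb, Egr1, Ier2, Atf3 and Dusp1) was lower in the deficient-labelled library in each of the 10 classes. It was 3888 deficient-labelled and 4581 wild-type-labelled CPM in cDC2-like cells, 4335 and 5354 CPM in cDC1-like cells and 5530 and 7511 CPM in macrophage-like cells. Neutrophil-like cells, where the direction of Hk2 changed with the processing, had 6242 and 9049 CPM. B cell-like cells, with Hk2 at 18.8 deficient-labelled and 18.0 wild-type-labelled CPM, had 2252 and 3020 CPM of these 8 genes. The summed proliferation genes were 731 deficient-labelled and 845 wild-type-labelled CPM in cDC2-like cells, and the share of barcodes over the mitochondrial limit was 3.78% and 13.5% in the whole libraries. The part of these in the Hk2 result was not tested.

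Phosphofructokinase-1, which phosphorylates fructose 6-phosphate, is built from liver-type (Pfkl, chr10:77986947-78010083, minus strand), platelet-type (Pfkp, chr13:6579768-6648777, minus strand) and muscle-type (Pfkm) subunits. Pfkp was highest in cDC1-like cells, at 254 deficient-labelled and 245 wild-type-labelled CPM. In cDC2-like cells it had 235 and 237 CPM, and its log2 ratio between libraries was -0.01 (-0.09 to 0.07), in the same cells in which Hk2 differed by 2.03-fold. It was lowest in B cell-like cells, at 56.0 deficient-labelled and 56.5 wild-type-labelled CPM. The order of the 10 classes by Pfkp was nearly the same in both libraries (Spearman's rho 0.99 over 10 classes, a description).

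Pfkl was highest in B cell-like cells, where Pfkp was lowest, with 38.2 deficient-labelled (77 UMIs) and 38.5 wild-type-labelled CPM (15 UMIs). The rest of its order was uncertain, with Spearman's rho of 0.25 between the libraries over 10 classes. In either library the intervals of all 9 pairs of neighbouring classes overlapped. Neutrophil-like cells were lowest for Pfkl in both libraries. As a portion of Pfkl and Pfkp UMIs, which are counted at the RNA's 3′ end and were not divided by length, Pfkp made up 59.5% (52.1 to 66.5%) of deficient-labelled and 59.5% (42.1 to 75.2%) of wild-type-labelled UMIs in B cell-like cells. In cDC2-like cells it made up 92.8% (91.9 to 93.6%) and 94.1% (93.04 to 95.1%), and in cDC1-like cells 93.9% and 93.1%. T cell-like cells lay between, at 79.5% deficient-labelled and 86.3% wild-type-labelled, with intervals reaching 71.7% and 73.7%. Fibroblast-like cells, shown for the deficient-labelled library alone, had 79.1%, or 60.2% once Pfkm UMIs were added to the total. The share concerns RNA and not protein subunits.

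**Figure D3:**
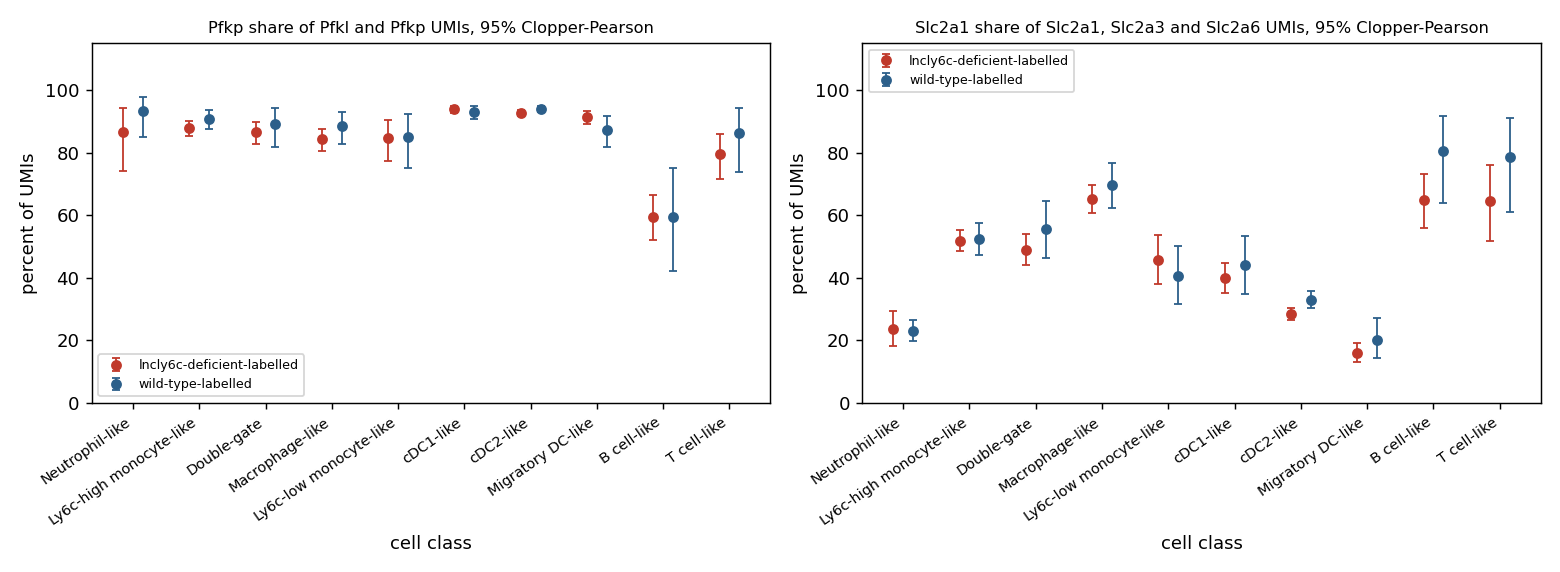
Share of Pfkp in Pfkl and Pfkp UMIs (left panel) and of Slc2a1 in Slc2a1, Slc2a3 and Slc2a6 UMIs (right panel), in percent, by cell class, deficient-labelled in red left of wild-type-labelled in blue, with 95% Clopper-Pearson intervals. B cell-like cells stand lowest for Pfkp at 59.5% in both libraries, and migratory DC-like and neutrophil-like cells lowest for Slc2a1.

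Aldoa (chr7:126795234-126800751, minus strand) encodes aldolase A, which splits the phosphorylated hexose. Its levels lay in a narrow band, from 164 CPM in cDC1-like to 233 CPM in neutrophil-like cells of the deficient-labelled library and from 136 to 280 CPM in the same classes of the wild-type-labelled library. Between the libraries it was 1.13-fold higher in deficient-labelled cDC2-like cells, at 190.5 against 169 CPM (log2 ratio 0.17, 0.08 to 0.27).

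Gapdh (chr6:125161715-125166467, minus strand) encodes the dehydrogenase that makes the pathway's NADH and is often used as a reference gene. It had 1042 deficient-labelled and 902 wild-type-labelled CPM in cDC2-like cells, 1020.1 and 907 CPM in cDC1-like cells and 847 and 763 CPM in Ly6c-high monocyte-like cells. Macrophage-like cells had 802 and 710.3 CPM and neutrophil-like cells 877 and 743 CPM. The deficient-labelled level was the higher in each of the 5 classes compared, by a log2 ratio of 0.15 to 0.24 with intervals above 0, and under every alternative tried. B cell-like cells had 481 and 408 CPM, the lowest level of the 10 classes in either library. Among the other classes shown but not compared, Ly6c-low monocyte-like (log2 ratio 0.25) and migratory DC-like cells (0.17) were higher too. Double-gate cells were not, at 901 and 941 CPM (-0.06, -0.18 to 0.05), nor T cell-like cells at 829 and 838 CPM (-0.02, -0.19 to 0.16).

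Pgk1 (chrX:106187100-106203699, plus strand) encodes phosphoglycerate kinase 1, which makes the first ATP of the pathway. It was 1.30-fold higher in deficient-labelled cDC1-like cells, at 316 against 242 CPM (log2 ratio 0.38, 0.25 to 0.52), and 1.21-fold higher in cDC2-like cells, at 216 against 179 CPM (0.27, 0.18 to 0.36). In Ly6c-high monocyte-like cells it was 249 deficient-labelled and 248 wild-type-labelled CPM. Pgk1 therefore stood on the other side from Hk2 in the same dendritic cells.

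Eno1 (chr4:150236721-150248879, plus strand) encodes enolase 1, the enzyme before pyruvate kinase. Monocytes held the most, with 265 deficient-labelled and 301 wild-type-labelled CPM in Ly6c-high and 284 and 296 CPM in Ly6c-low monocyte-like cells. In cDC1-like cells it had 116 and 108 CPM, against 229 and 240.1 CPM in cDC2-like cells. Ly6c-high monocyte-like cells were the compared class in which its interval lay away from 0, with a log2 ratio of -0.19 (-0.31 to -0.06).

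Pkm (chr9:59656368-59679375, plus strand) encodes pyruvate kinase M, whose splice forms M1 and M2 cannot be told apart in these gene counts. Monocytes and neutrophils held the most. Ly6c-high monocyte-like cells had 649 deficient-labelled and 633 wild-type-labelled CPM, Ly6c-low monocyte-like cells 586 and 541 CPM and neutrophil-like cells 554 and 683 CPM, so that the first place differed between the libraries. B cell-like cells held 177 and 103 CPM, the lowest level. Between the libraries Pkm was higher in deficient-labelled macrophage-like cells, at 376 against 319 CPM (log2 ratio 0.24, 0.09 to 0.39), and in cDC2-like cells, at 387 against 334 CPM (0.21, 0.15 to 0.28). In neutrophil-like cells the ratio was -0.30 (-0.51 to -0.10).

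Ldha (chr7:46841475-46855627, plus strand) encodes lactate dehydrogenase A. It was highest in cDC1-like cells, at 385 deficient-labelled and 378 wild-type-labelled CPM, and in T cell-like cells, at 356 and 382 CPM, and lowest in macrophage-like cells, at 200.1 and 161 CPM. The macrophage-like log2 ratio was 0.32 (0.11 to 0.53), and -0.07 when each cell was thinned to 1000 UMIs. Ldha made up over 99% of Ldha and Ldhb UMIs in both conventional dendritic classes, for example 99.9% of 4454 deficient-labelled and 99.9% of 2706 wild-type-labelled UMIs in cDC2-like cells.

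Read together, 1 of the 10 members was past 1.5-fold lower in deficient-labelled cDC2-like cells (Hk2, with 4.37% of all measured genes past that size on that side) and 0 past 1.5-fold higher (5.83% of genes). In cDC1-like cells it was again Hk2 alone on the lower side (6.17% of genes) and 0 on the higher (5.72%). With each cell thinned to 1000 UMIs the log2 ratio there was -0.27 and the number past 1.5-fold 0. These thinned values rest on 1 random draw. In another draw 16.7% of deficient-labelled and 27.3% of wild-type-labelled cDC1-like cells had an Hk2 UMI, a wider gap. Ly6c-high monocyte-like cells had 1 higher (8.08% of genes) and 0 lower (6.72%), and macrophage-like cells 1 higher (8.87%) and 0 lower (5.02%). In both it was Pfkl, at 18.5 deficient-labelled and 12.3 wild-type-labelled CPM in monocyte-like cells and 18.8 and 12.2 CPM in macrophage-like cells, with 32 and 19 wild-type-labelled UMIs and intervals that reached 0. Both calls were lost with median-of-ratios scaling or thinning, and the macrophage-like ratio was -0.41 thinned. That thinned ratio rests on 1 random draw with few Pfkl UMIs, so its direction is uncertain. In another draw at the same depth 8 of 449 deficient-labelled and 1 of 169 wild-type-labelled macrophage-like cells had a Pfkl UMI, the other direction. In neutrophil-like cells 0 of 9 measured members were past 1.5-fold on either side (16.7% of genes higher, 10.7% lower). Such counts lie near what the background gives for 10 genes.

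The median log2 ratio of the measured members was 0.09 in Ly6c-high monocyte-like cells, 0.14 in macrophage-like, 0.24 in neutrophil-like, 0.13 in cDC1-like and 0.08 in cDC2-like cells. Over all measured genes it was 0.02, 0.05, 0.03, -0.03 and 0.02 in the same classes. Summed, the members gave a log2 ratio of 0.03 in cDC2-like cells (0.01 to 0.05), where Hk2 was lower and Gapdh, Pkm, Pgk1 and Aldoa were higher. In cDC1-like cells the sum gave 0.08 (0.04 to 0.13) and in macrophage-like cells 0.11 (0.05 to 0.16).

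**Figure D4:**
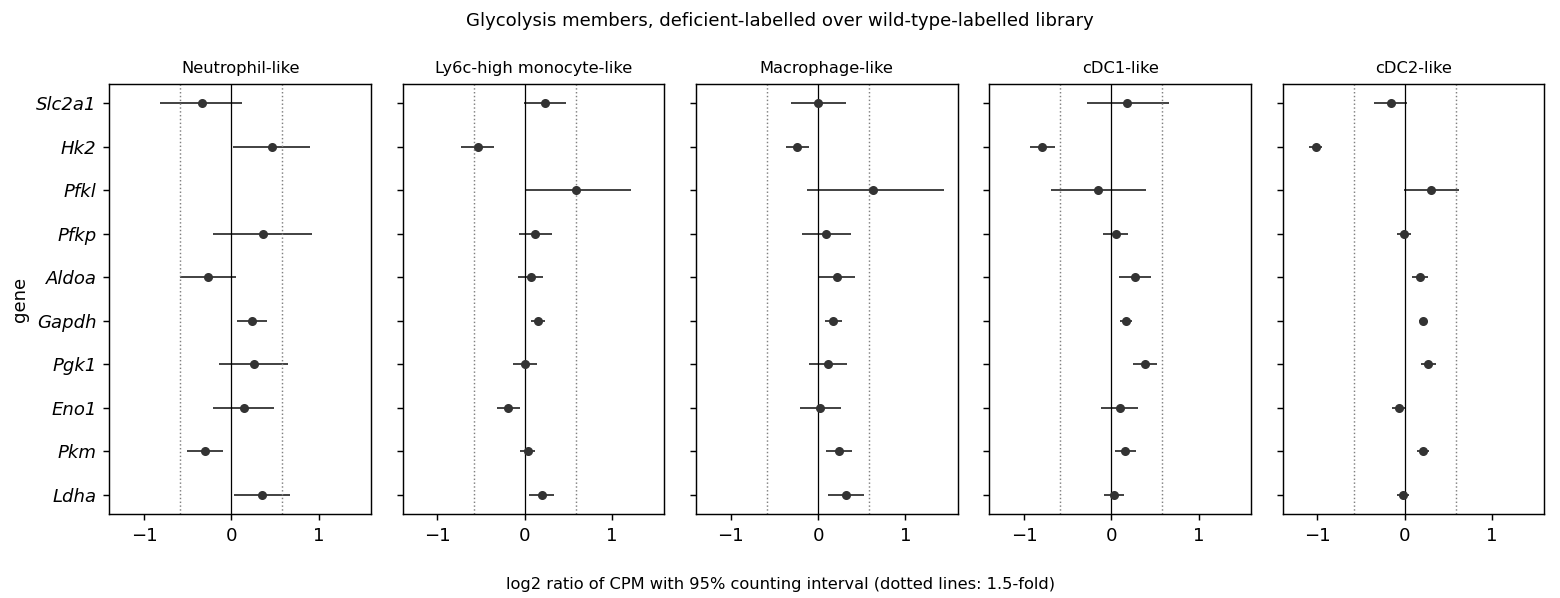
Log2 ratio of the CPM of the deficient-labelled library over that of the wild-type-labelled library, for the glycolysis genes (rows) in the 5 classes that reached 100 cells in both libraries, with 95% counting intervals and dotted lines at 1.5-fold. Pfkl is not drawn in neutrophil-like cells, where it had 12 UMIs in all. Hk2 lies past the lower line in cDC1-like and cDC2-like cells, while Gapdh lies above 0 in all 5 panels.

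Along the classes from monocyte to macrophage, Hk2 was the member clearly higher in macrophages, while most others were lower, alike in both libraries. Hk2 went with the macrophage: the deficient-labelled library had 109.7, 241 and 388 CPM in Ly6c-high monocyte-like, double-gate and macrophage-like cells, and the wild-type-labelled library 159.6, 261 and 457 CPM. Macrophage-like cells held 3.54-fold more Hk2 than monocyte-like cells in the deficient-labelled and 2.86-fold more in the wild-type-labelled library. Pkm, Eno1, Pgk1, Ldha, Pfkp and Aldoa went with the monocyte. For Pfkp the log2 ratio of macrophage over monocyte was -0.40 in the deficient-labelled and -0.38 in the wild-type-labelled library. For Aldoa it was -0.18 and -0.33, and for Gapdh -0.08 and -0.10. Pkm had 649, 480.3 and 376 CPM along the same 3 classes of the deficient-labelled library and 633, 526 and 319 CPM in the wild-type-labelled library.

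Eno1 had 265, 212 and 137 CPM in the deficient-labelled and 301, 227 and 135 CPM in the wild-type-labelled library, and Pgk1 249, 211 and 175 CPM against 248, 170.4 and 162 CPM. The macrophage-like level of Ldha was 1.24-fold below the monocyte-like level in the deficient-labelled and 1.35-fold below it in the wild-type-labelled library. For Hk2, Pfkp, Pgk1, Eno1 and Pkm the double-gate cells lay between the other classes in both libraries. Slc2a1 and Pfkl had log2 ratios of macrophage over monocyte between -0.23 and 0.03. Double-gate barcodes had medians of 8667.5 deficient-labelled and 12227 wild-type-labelled UMIs, above those of macrophage-like cells at 6887.5 and 6901, and how many of them hold 2 cells was not tested.

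**Figure D5:**
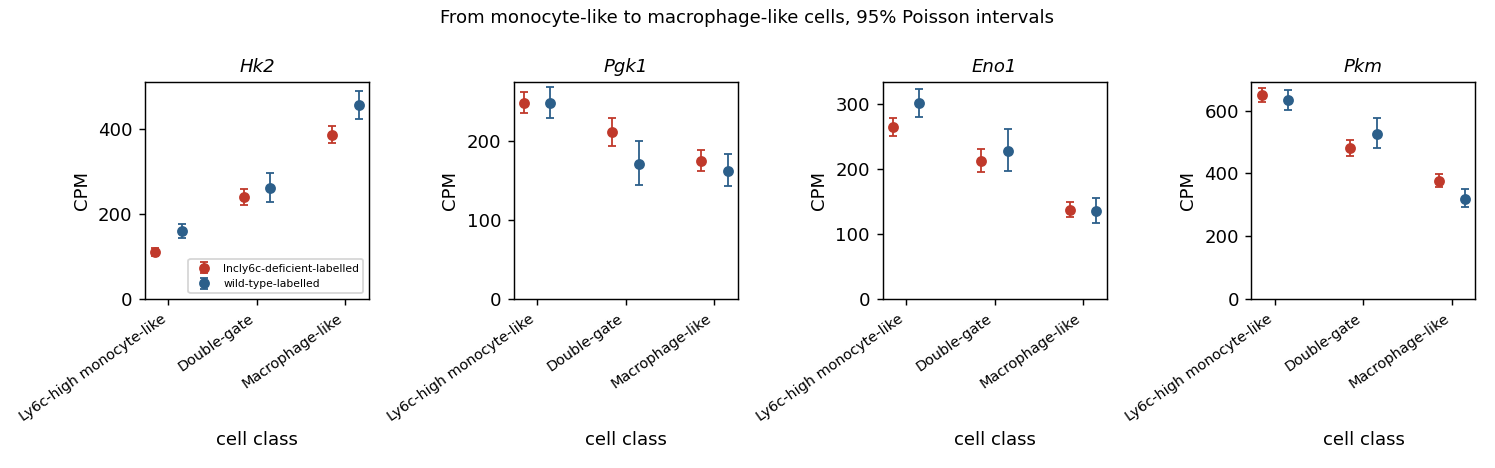
CPM (vertical axes, from 0) of Hk2, Pgk1, Eno1 and Pkm in Ly6c-high monocyte-like, double-gate and macrophage-like cells, deficient-labelled in red left of wild-type-labelled in blue, with 95% Poisson intervals. Hk2 is higher toward macrophage-like cells and the other 3 genes lower, in both libraries.

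Cycling cells of the same dendritic classes differed from their resting neighbours member by member. Cells with UMIs of at least 4 of 8 proliferation genes were called cycling, which favours deeply sequenced cells. In cDC2-like cells Gapdh had 1257 CPM in cycling and 956 CPM in other cells of the deficient-labelled library, and 1023 and 841 CPM in the wild-type-labelled library. Aldoa went the opposite way, with 137 CPM in cycling and 212 CPM in other deficient-labelled cells, and 128 and 190.0 CPM in wild-type-labelled cells. The cDC1-like cells gave the same directions: Aldoa had a log2 ratio of cycling over other cells of -0.80 in the deficient-labelled and -0.79 in the wild-type-labelled library, and Gapdh of 0.50 and 0.65. Cycling cDC1-like cells also held more Eno1, at 143 against 91.7 CPM in the deficient-labelled and 129 against 81.5 CPM in the wild-type-labelled library.

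The rest of the pathway was read from 19 other glycolysis genes. In Ly6c-high monocyte-like cells 1 of 13 measured was past 1.5-fold higher and 1 lower, against 8.08% and 6.72% of all measured genes. In macrophage-like cells 2 and 1 of 12 were (8.87% and 5.02% of genes), in cDC2-like cells 2 and 1 of 16 (5.83% and 4.37%) and in cDC1-like cells 1 and 1 of 12 (5.72% and 6.17%). Neutrophil-like cells had 0 and 2 of 10 (16.7% and 10.7%). Slc16a3 encodes the lactate exporter MCT4. It had 281 deficient-labelled and 140.3 wild-type-labelled CPM in Ly6c-high monocyte-like cells (log2 ratio 1.001, 0.83 to 1.17), 41.7 and 22.5 CPM in macrophage-like cells (0.89, 0.35 to 1.46) and 45.5 and 24.5 CPM in cDC2-like cells (0.89, 0.67 to 1.12). Neutrophil-like cells, which held the most, stood on the other side, with 597 deficient-labelled and 700.0 wild-type-labelled CPM (-0.23, -0.43 to -0.03), and in cDC1-like cells the interval reached 0 (14.6 and 12.2 CPM). Slc16a1, the lactate carrier MCT1, had 16.5 and 32.8 CPM in macrophage-like cells (-0.99, -1.55 to -0.43). Slc2a6 was 75.0 deficient-labelled and 53.8 wild-type-labelled CPM in Ly6c-high monocyte-like cells.

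Of 7 pentose phosphate genes, G6pdx, which encodes the entry enzyme of that branch, had 48.3 deficient-labelled and 81.9 wild-type-labelled CPM in Ly6c-high monocyte-like cells (log2 ratio -0.76, -1.03 to -0.49). In macrophage-like cells it had 37.4 and 21.9 CPM (0.78, 0.23 to 1.36). No other gene of this list was past 1.5-fold in those monocyte-like cells (8.08% of all measured genes higher, 6.72% lower). In macrophage-like cells Rpe was also past it higher (0.96, 0.01 to 2.05) and Rpia lower (-0.80, -1.50 to -0.09). Beside these stood 8.87% and 5.02% of genes. The list of pyruvate entry and the tricarboxylic acid cycle has 16 genes. Past 1.5-fold were 0 of 15 measured in Ly6c-high monocyte-like cells and 0 of 16 in cDC1-like and in cDC2-like cells. Of all measured genes, 8.08% were past it higher and 6.72% lower in monocyte-like cells. The shares were 5.72% and 6.17% in cDC1-like and 5.83% and 4.37% in cDC2-like cells. Mdh2 in cDC2-like cells was just short of it (log2 ratio -0.57, -0.65 to -0.50). In neutrophil-like cells Ogdh was past it higher (0.65, -0.14 to 1.42) and Mdh2 lower (-0.59, -1.01 to -0.19), beside 16.7% and 10.7% of genes. In macrophage-like cells 2 of 15 were past 1.5-fold higher and 0 lower (8.87% and 5.02% of genes). Suclg1, which encodes a subunit of succinyl-CoA ligase, had 31.6 deficient-labelled and 19.3 wild-type-labelled CPM there, and Idh3a, a subunit of isocitrate dehydrogenase, had 20.2 and 12.9 CPM with an interval that reached 0. None of 5 gluconeogenesis genes reached 100 UMIs in monocyte-like or macrophage-like cells. In cDC2-like cells Pck2 of that list had 19.0 deficient-labelled and 12.5 wild-type-labelled CPM (0.60, 0.27 to 0.93). It was past 1.5-fold higher, beside 5.83% of genes.

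Hypoxia-induced genes did not lie on 1 side as a list. Of 14, 0 of 10 measured in Ly6c-high monocyte-like cells were past 1.5-fold higher and 1 lower (8.08% and 6.72% of all measured genes), and 2 of 9 in macrophage-like cells were higher and 0 lower (8.87% and 5.02%). The median log2 ratio was -0.03 in each of these 2 classes. Vegfa, a growth factor gene for blood vessels, had 53.6 deficient-labelled and 32.1 wild-type-labelled CPM in macrophage-like cells (log2 ratio 0.74, 0.29 to 1.21) but 51.1 and 68.8 CPM in Ly6c-high monocyte-like cells (-0.43, -0.71 to -0.15). Ero1l, an oxidoreductase of protein folding, had 30.3 and 19.3 CPM in macrophage-like cells. P4ha1, a collagen prolyl hydroxylase subunit, had 61.0 and 43.8 CPM in Ly6c-high monocyte-like cells. Egln1 had 22.1 deficient-labelled and 32.7 wild-type-labelled CPM in Ly6c-high monocyte-like cells (-0.56, -0.98 to -0.14). In macrophage-like cells it had 20.4 and 29.6 CPM (-0.53, -1.08 to 0.03). In cDC2-like cells Hif1a (-0.40, -0.53 to -0.27) and Ndrg1 (-0.28, -0.37 to -0.20) were lower in the deficient-labelled library. Ankrd37 (0.74, 0.20 to 1.30), P4ha1 (0.28, 0.09 to 0.47) and Bnip3l (0.17, 0.02 to 0.32) were higher there. The part of these genes in the Hk2 result was not tested.

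The genes whose level followed the mean profile of the 10 members most closely were Fes (Pearson's r 0.96), Ramp1 (0.95), Rac1 (0.94), Vav3 (0.93) and Fam105a (0.92). These values run over 20 points, which are 10 classes in 2 libraries and so share their cells and depth, and they are a description.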

How the data were processed

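The labels name the V3 chemistry of the 10x 3′ single-cell kit for the capture of lamina propria cells from the colon. The deposited values are whole UMI counts per gene and barcode without normalization, which the authors made on mm10 using STAR 2.5.1b within Cell Ranger, per the submitters' processing notes (per the file headers, the software was version 3.0.2). They sum to 54773076 UMIs in the deficient-labelled and 23384895 UMIs in the wild-type-labelled library.

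Barcodes with at least 500 UMIs, 200 genes and at most 20% mitochondrial UMIs were kept. A cell entered the gate of a type when at least 3 of its markers had a UMI, for 22 types, and the highest mean standardized marker level decided among gates of the same lineage. Barcodes passing gates of separate lineages were dropped, which was the only treatment of doublets. The rule for resolving gates was set after the data were seen, and the members and lists were chosen with earlier results of these data known. Classes with 50 cells in each library were shown and those with 100 compared.

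Counts were summed per class and library. CPM carry exact Poisson, shares Clopper-Pearson and log2 ratios conditional binomial 95% intervals. A gene counted as measured in a class from 50 UMIs upward over the 2 libraries, and the floor for a count of 0 was 3. The named genes are the 10 members, up to 3 genes of each other list with the largest ratio among those with at least 100 UMIs in the monocyte-like or macrophage-like class, and the 5 genes most like the mean member profile (log2 of CPM plus 10, genes with at least 500 UMIs). Slc2a3, Idh3a, Ogdh, Mdh2, Rpe, Rpia, and values of cDC2-like cells outside the members, were named after their values were seen. P4ha1 was named outside the rule, since Egln1 had a larger ratio. Processed copies of Gapdh, Pgk1, Eno1 and Ldha elsewhere in the genome could take or lend reads, so small differences in these genes are uncertain. Measured related genes were rare, such as Eno1b with 19 deficient-labelled and 6 wild-type-labelled UMIs. Ratios and intervals were tested on simulated data. The tools were matplotlib 3.10.9, pandas 2.3.3, scipy 1.17.1 and numpy 2.4.6 under Python 3.11.15.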

Additional observations from a re-analysis of the deposited data

Results flagged for a closer look

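Hk2 and Pkm each had a ratio between libraries on opposite sides in 2 classes, with counting intervals away from 0 on both. Hk2 had a log2 ratio, deficient-labelled over wild-type-labelled, of 0.46 in neutrophil-like cells and -1.02 in cDC2-like cells, a difference of 1.48. Pkm had 0.24 in macrophage-like and -0.30 in neutrophil-like cells, a difference of 0.54. Neither difference was tested, since each group is 1 library. The Hk2 value of neutrophil-like cells, on 74 deficient-labelled and 106 wild-type-labelled UMIs, turned below 0 under 2 of the alternatives, whereas the Pkm value there stayed below 0 under all of them. Neutrophil-like cells were shallow, with medians of 2233 deficient-labelled and 2944 wild-type-labelled UMIs.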

How the results depend on the processing

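No paired analysis was possible because each group is 1 library. In all, 15 alternatives were tried, 3 of them (without cycling cells, and cDC2-like cells with or without a Plet1 UMI) chosen after seeing the data. The log2 ratio of Hk2 was below 0 under each setting in cDC2-like cells (-1.13 to -1.01), cDC1-like cells (-0.96 to -0.27), macrophage-like cells (-0.29 to -0.13) and Ly6c-high monocyte-like cells (-0.60 to -0.41). With 2 markers it was -1.13 in cDC2-like and -0.96 in cDC1-like cells. Thinned to 1000 UMIs it was -1.10 in cDC2-like, -0.27 in cDC1-like and -0.16 in neutrophil-like cells, where the mean over cells gave -0.38. Each of these thinned ratios rests on 1 random draw, and the thinned cell shares of these classes on another. The summed members gave 0.092 in monocyte-like cells with 2 markers and -0.049 in neutrophil-like cells as a mean over cells. In cDC2-like cells they gave 0.080 thinned, 0.064 without and -0.072 with a Plet1 UMI.

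The number of members past 1.5-fold became 0 in monocyte-like cells with a mitochondrial limit of 10%, median-of-ratios scaling, thinning or no cycling cells, and 0 in macrophage-like cells with 2 markers, median-of-ratios scaling, a mean over cells, thinning or no cycling cells. Pfkl in macrophage-like cells, the member counted there, reversed to -0.28 with 2 markers and -0.41 thinned. The thinned value rests on 1 random draw. Another draw left a Pfkl UMI in 8 of 449 deficient-labelled and 1 of 169 wild-type-labelled cells, the other direction. In neutrophil-like cells the number was 1 with 2 markers or with no filter on low counts and 2 with at least 2000 UMIs. Thinning gave 0 in cDC1-like and 2 in cDC2-like cells. Past 2-fold it was 0 in monocyte-like, macrophage-like and cDC1-like cells and 1 in cDC2-like cells.

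The B cell-like level of the summed members relative to the median of the other classes was -0.80 with mixed barcodes kept, -0.66 without mitochondrial and ribosomal genes in the total and -0.89 without cycling cells in the deficient-labelled library, and -0.89 without mitochondrial and ribosomal genes in the wild-type-labelled library. The Pfkp share in B cell-like cells was 67.1% with mixed barcodes kept and 48.3% thinned (60 UMIs) in the deficient-labelled library, and 0% thinned in the wild-type-labelled library, where 7 UMIs were left. In cDC2-like cells it was 91.4% thinned and 94.4% with a Plet1 UMI in the deficient-labelled library and 95.5% thinned in the wild-type-labelled library. The 0% came from a random draw. In another draw 3 of 83 wild-type-labelled B cell-like cells had a Pfkp UMI and 3 had a Pfkl UMI. The cause of the shifts in level and share was not tested. Of 512 other values of single members, 461 kept their sign. Depth limits the Pfkl calls, which rest on 32 wild-type-labelled UMIs in monocyte-like and 19 in macrophage-like cells.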
